A study of Gallus gallus with 4 samples.

Results

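The phototransduction cascade of rods and cones was followed through 10 genes, namely GRK7, CNGA3, CNGA1, PDE6C, PDE6B, PDE6H, GUCA1A, GUCA1B, RCVRN and RGS9. A gene counted as measured where the accession of at least 1 array probe mapped to it, and this held for 7 genes with 11 of the 43603 probes that are no controls. PDE6B, RCVRN and RGS9 had no probe matched through an accession and are not analysed here. All 11 probes were well above background on all 4 arrays, so the filter on dim probes removed none of them.

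The samples were chorioretinal buttons, retina with the choroid behind it, 6 mm wide and cut temporal to the optic nerve from the back of chick eyes. Each chick wore a glass goggle over the right eye from day 6 after hatching for 7 days, a treatment that induces myopia, while the left eye stayed uncovered as its control. The chicks lived under normal or violet light in a cycle with 12 hours of light, and tissue was taken on day 13. This gives 4 groups, covered and uncovered eyes in each of the lights. In all 8 chicks gave 16 eyes, and each group is a single pool of RNA from 4 of them on 1 array, so that the groups have no replicates and no difference below has an error between animals. Covered and uncovered pools of a light share their chicks, whereas the lights were given to different chicks. No strain is given in the sources used here.

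Phototransduction starts when light activates an opsin, which activates the G protein transducin, which switches on the phosphodiesterase PDE6. PDE6 breaks down cyclic GMP, and the fall in cyclic GMP closes cation channels built from CNG subunits in the outer segment. The response ends when opsin kinases and arrestin silence the pigment, when the RGS9 complex turns transducin off, and when the calcium sensors of the GUCA1 family drive guanylate cyclase to rebuild cyclic GMP. Rods and cones use separate gene copies for most of these steps. Among the measured members, GRK7, CNGA3, PDE6C and PDE6H are the cone copies, CNGA1 is the rod copy, and GUCA1A and GUCA1B are counted here with both cell classes. The retina of the chick is rich in cones.

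Scanner signals were compared as levels, that is log2 of the processed signal minus log2 of that array's 75th percentile. The 75th percentile was 2108.5 in the uncovered normal-light array, 1324.9 in the uncovered violet-light array, 797.51 in the covered normal-light array and 882.96 in the covered violet-light array, so both covered arrays were dimmer before scaling. The uncovered normal-light array stood apart, with correlations of 0.9773 to 0.9878 with the others across probes against 0.9896 to 0.9943 among the rest. The deposited sources also disagree on 2 labels. In the authors' value table, the values under the uncovered normal-light label correlated at 0.98125 across probes with the scan so labelled and at 0.99921 with the covered violet-light scan. Those under the covered violet-light label correlated at 0.98153 with the scan so labelled and at 0.99974 with the uncovered normal-light scan. For the remaining columns, the scan of the same label correlated at 0.99962 and 0.9995. Groups are named below by the scanner files' labels, and each comparison of the members is repeated with the value table's labels. Other pathway genes and markers are given with the scanner labels unless stated. From 31 probes printed 5 times each, log2 differences between arrays had an SD of 0.068 among the spots of 1 probe, which covers spot error alone.

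The clearest pattern under the scanner labels was a lower level of the 4 cone members in covered eyes. Its size was nearly equal in both lights except for PDE6C, at -0.88 under normal and -0.62 under violet light. GRK7 and CNGA3 differed most, by about 2-fold or more, and PDE6C and PDE6H differed less. The brighter GUCA1A probe followed the cone members, while CNGA1 and GUCA1B did not. The 6 other measured cone genes of the pathway were not lower as a group, with medians of 0.27 under normal and 0.26 under violet light. Fewer photoreceptors and less RNA per photoreceptor cannot be told apart in such pools.

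GRK7, the kinase that phosphorylates light-activated cone opsins, had 2 probes. The brighter one stood at a level of 1.81 in the uncovered normal-light array, 1.81 in the uncovered violet-light array, 0.54 in the covered normal-light array and 0.55 in the covered violet-light array. The dimmer one stood at 1.66, 1.64, 0.50 and 0.49 in the same order. On both probes the uncovered arrays were alike, the covered arrays were alike, and the pairs did not overlap. The goggle difference, covered minus uncovered, was -1.28 under normal light and -1.26 under violet light on the brighter probe, and -1.16 and -1.15 on the dimmer one. The light difference, violet minus normal, was 0.00 in uncovered and 0.02 in covered eyes on the brighter probe, within the spot error.

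CNGA3 encodes the main subunit of the cone cyclic GMP-gated channel. Its brighter probe read 1.18 in the uncovered normal-light array, 1.11 in the uncovered violet-light array, 0.12 in the covered normal-light array and 0.11 in the covered violet-light array. Its dimmer probe read -0.01, 0.06, -0.79 and -0.79 in the same order. Both probes thus put the covered arrays below the uncovered arrays. The goggle difference was -1.05 under normal and -1.0 under violet light on the brighter probe, the latter 1.99-fold and so just short of 2-fold. On the dimmer probe it was smaller, at -0.78 and -0.85.

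The cone phosphodiesterase was represented by its catalytic subunit PDE6C and its inhibitory subunit PDE6H. PDE6C stood at 3.24 in uncovered normal light, 3.06 in uncovered violet light, 2.36 in covered normal light and 2.44 in covered violet light, on a single probe. The uncovered arrays were again the higher pair, and the goggle difference was -0.88 in normal and -0.62 in violet light. The brighter PDE6H probe stood at 3.31, 3.59, 2.85 and 3.04 in the same order of arrays, and the dimmer one at 2.96, 3.24, 2.53 and 2.73. PDE6H was highest in the uncovered violet-light array and lowest in the covered normal-light array on both probes. Its goggle difference was -0.45 and -0.55 on the brighter probe and -0.43 and -0.51 on the dimmer one. Unlike GRK7, PDE6H also read higher under violet light, by 0.28 in uncovered and 0.19 in covered eyes. Both enzyme subunits thus differed in the same direction with the goggle, by less than 2-fold.

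CNGA1, the rod counterpart of CNGA3, had another pattern. Its single probe read -0.45 in uncovered normal light, -1.26 in uncovered violet light, -1.52 in covered normal light and -1.13 in covered violet light. One array, uncovered normal light, was higher than the other three, and the covered arrays lay on either side of the uncovered violet-light array. The goggle difference was -1.06 under normal light and 0.13 under violet light, and the light difference was -0.81 in uncovered and 0.39 in covered eyes. The large value under normal light rests on the array that stood apart. Without that array, the comparisons left for CNGA1 were the goggle difference of 0.13 under violet light, the light difference of 0.39 in covered eyes and a difference of -0.26 between covered normal light and uncovered violet light.

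**Figure D1:**
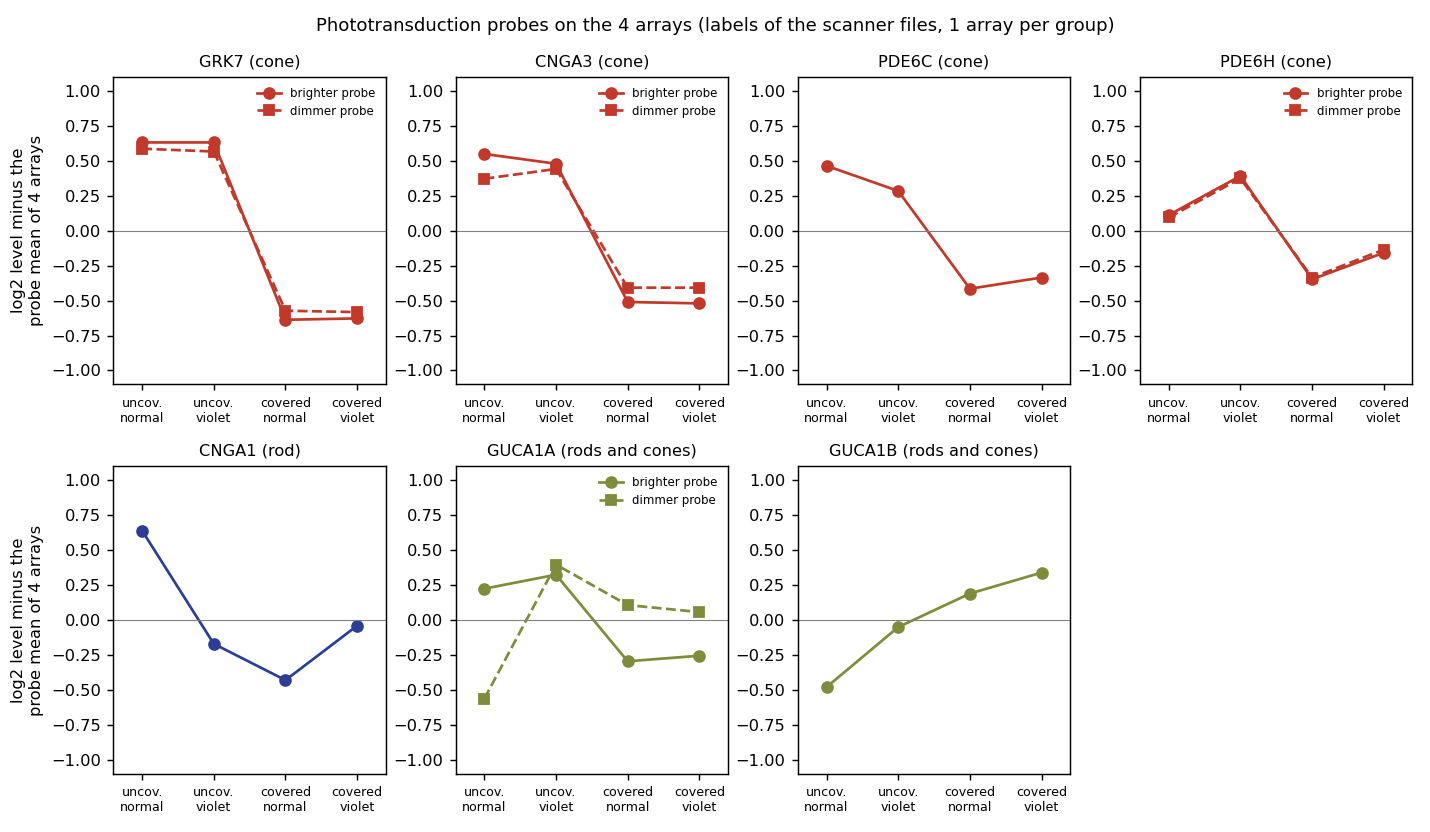
Log2 level of each of the 11 probes on the 4 arrays, each probe centred on its own mean over the arrays, with 1 point per array and no error bar since each group is 1 array. The 4 cone genes and the brighter GUCA1A probe lie higher in both uncovered arrays than in both covered arrays, CNGA1 is high in the uncovered normal-light array alone, and GUCA1B is lowest there.

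The GUCA1 genes encode guanylate cyclase-activating proteins, the calcium sensors that speed up cyclic GMP synthesis when calcium falls in the light. GUCA1A and GUCA1B lie next to each other on chromosome 26 with 0 annotated genes between them in RefSeq's GRCg7b annotation, so they share their position but not their pattern. The brighter GUCA1A probe read 4.46 in uncovered normal light, 4.56 in uncovered violet light, 3.94 in covered normal light and 3.98 in covered violet light. It separated covered from uncovered arrays as the cone members did, with goggle differences of -0.53 and -0.58. The dimmer GUCA1A probe read -1.77, -0.81, -1.1 and -1.15 in the same order. On it the uncovered arrays were the lowest and the highest of the 4, and the goggle difference was 0.67 under normal and -0.34 under violet light. The probes of GUCA1A disagreed by 1.19 under normal light but by 0.24 under violet light, the comparison without the array that stood apart. Which of them tracks the GUCA1A transcript was not tested.

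GUCA1B ran against the cone members. Its probe read -2.58 in uncovered normal light, -2.15 in uncovered violet light, -1.91 in covered normal light and -1.76 in covered violet light. Both covered arrays were above both uncovered arrays. The goggle difference was 0.68 under normal and 0.39 under violet light, below 2-fold in each. GUCA1B had the dimmest of the member probes on every array, at 351.5, 299.3, 212.5 and 261.1 units of processed signal before scaling, in the same order of arrays, all well above background.

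These differences were set against the 4807 named genes, each taken at whichever passing probe was brightest on average. Under normal light, 3 of 7 members were at least 2-fold lower in covered eyes, namely GRK7, CNGA3 and CNGA1, against 1.41% of all named genes. None was at least 2-fold higher, as 4.70% of all were. Under violet light 1 of 7, GRK7, was at least 2-fold lower, against 0.686% of all, and none at least 2-fold higher, against 0.395%. GRK7 was also the only member at least 2-fold lower in both lights, which 0.333% of all genes were.

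The members' median goggle difference was -0.88 under normal light and -0.58 under violet light, against 0.02 and 0.04 over all named genes. The 4 cone members had medians of -0.97 and -0.81, and CNGA1, the sole measured rod member, had -1.06 and 0.13. Both covered arrays lay below both uncovered arrays for 5 of 7 members, namely the 4 cone genes and GUCA1A. This non-overlap was common, at 26.6% of all named genes, with 35% the other way, where GUCA1B belongs. The same 5 members had a goggle difference below 0 in both lights, as had 32.2% of all named genes. A value below 0 under normal light with one above 0 under violet light, as for CNGA1, was seen in 15.8% of named genes. The comparison of cones with rods therefore rests on 4 cone genes and a single rod gene, and no test across genes was made.

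**Figure D2:**
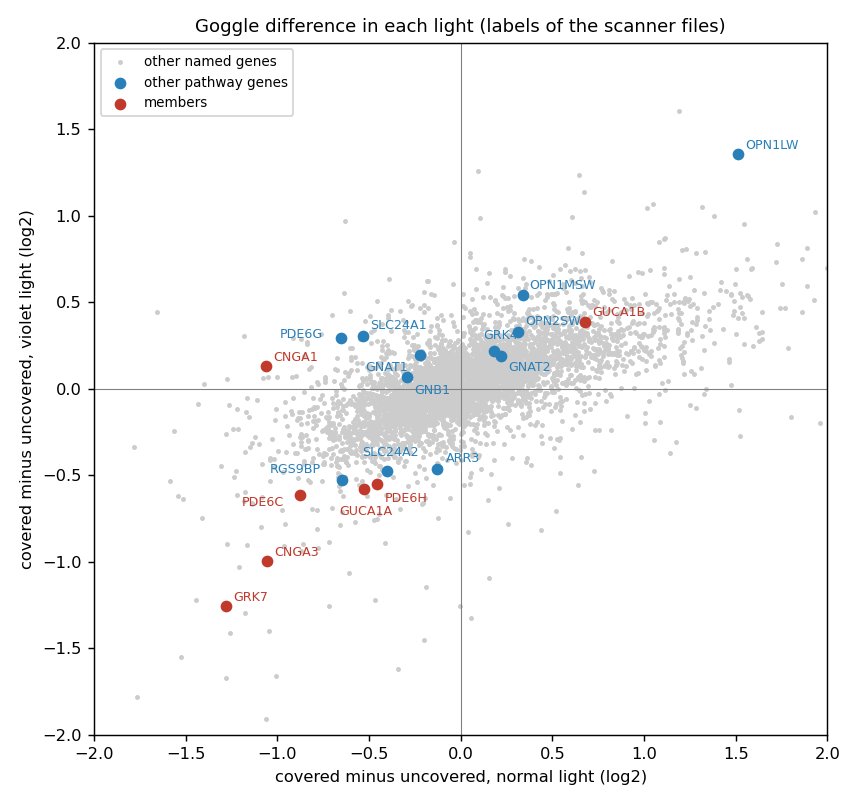
Goggle difference (log2, covered minus uncovered) under normal light on the horizontal axis and under violet light on the vertical axis, 1 point per gene, with members in red, the other pathway genes named in the text in blue and other named genes in grey; 45 genes lie beyond the axis limits of 2. The cone members lie in the lower left, and the red cone pigment OPN1LW lies far to the upper right. CNGA1 lies to the upper left, at -1.06 under normal light. PDE6G, SLC24A1, GNB1 and GNAT1, counted with rods, lie further right, from -0.65 to -0.22 under normal light.

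A limma fit of goggle and light paired the covered with the uncovered pool of each light and had 1 residual degree of freedom. It was run over all 35407 passing probes and assumes that goggles act alike in both lights. It called 0% of probes at an adjusted p of 0.05, and 0 of the 11 member probes. At an unadjusted p of 0.05 it counted 7254 probes, 20.5% of all, and 9 of 11 member probes, the exceptions being CNGA1 and the dimmer GUCA1A probe. GRK7 differed by -1.27 (SE 0.156, limma adjusted p = 0.234, lower in 2 of 2 lights) and CNGA3 by -1.02 (SE 0.157, limma adjusted p = 0.234, lower in 2 of 2 lights). For PDE6C the fit gave -0.75 (SE 0.167) and for the brighter PDE6H probe -0.50 (SE 0.158), with the same adjusted p of 0.234 from limma and lower levels in 2 of 2 lights. For CNGA1 the fitted value was -0.47 (SE 0.313, limma adjusted p = 0.417). With a variance trend, limma called 8 of the 11 member probes, against 2687 of all 35407, and with median scaling 6 of 11, against 2324. With median scaling all 11 member probes had the same SE of 0.244, so those calls rest on a shared error and not on that of each probe. In the brighter probes alone it called 3 of 10 member probes, both of GRK7 and the brighter one of CNGA3, against 32 of 17703. With the scanner labels, whether member probes passed the adjusted threshold thus depended on the variance model, the scaling and the filter on dim probes. With the value table's labels, the fit as first run called 0 of 11 member probes. At an unadjusted limma p of 0.05 it then counted 0 of 11 member probes, against 1601 of 35407 probes. The dimness of both covered arrays before scaling runs along the goggle split of the scanner labels. Quantile normalization, which gives the arrays equal distributions, left GRK7 at -1.24 under normal and -1.25 under violet light. The part of this dimness in the members' values was not tested.

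No member reached 2-fold between the lights under the scanner labels. In uncovered eyes 0 of 7 were at least 2-fold lower or higher under violet light, against 1.69% and 1.23% of all named genes. In covered eyes 0 of 7 reached it either way, against 2.27% and 0.0832%. The members' median light difference was 0.00 in uncovered and 0.08 in covered eyes, with a range of -0.81 (CNGA1) to 0.44 (GUCA1B) in uncovered and of -0.01 (CNGA3) to 0.39 (CNGA1) in covered eyes. The goggle difference under violet light minus that under normal light was 1.19 for CNGA1, the only member at or above 1, against 0.707% of named genes. None was at or below -1, against 2.48%. For the 4 cone genes this difference ranged from -0.09 (PDE6H) to 0.26 (PDE6C).

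Under the value table's labels, the same arrays separate by light in place of the goggle. GRK7 then read higher under violet light by 1.26 in uncovered and 1.28 in covered eyes, and its goggle differences became -0.02 and 0.00. CNGA3 read higher under violet light by 1.0 and 1.05, with goggle differences of 0.01 and 0.07. PDE6C read higher by 0.62 and 0.88, PDE6H by 0.55 and 0.45, and the brighter GUCA1A probe by 0.58 and 0.53. For GRK7, CNGA3 and the brighter GUCA1A probe, the contrast that was near 0 under the first label set carried nearly the whole difference under the second. The dimmer GUCA1A probe did not follow. Its light difference was then 0.34 in uncovered and -0.67 in covered eyes, and its goggle difference 0.05 under normal and -0.96 under violet light. CNGA1 changed to goggle differences of -0.39 and 0.81 and light differences of -0.13 and 1.06, so that the covered violet-light pool was then its highest. GUCA1B became lower under violet light, by -0.39 and -0.68.

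The counts moved with the labels. Relabelling only exchanges the uncovered normal-light and covered violet-light arrays, so each contrast is an earlier one with its sign reversed. The light difference in covered eyes, for instance, is the earlier goggle difference under normal light reversed. The counts and shares below thus restate those above under other names and are no separate support. Under the table's labels, 1 of 7 members (GRK7) was at least 2-fold higher under violet light in uncovered eyes, against 0.686% of named genes, and 3 of 7 (GRK7, CNGA3 and CNGA1) in covered eyes, against 1.41%. None was at least 2-fold lower in either, against 0.395% and 4.70%. For the goggle, 0 of 7 were at least 2-fold lower under normal light, against 0.0832%, or higher, against 2.27%. Under violet light 0 of 7 were lower, against 1.23%, or higher, against 1.69%. Which source holds the right labels cannot be told from these files.

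**Figure D3:**
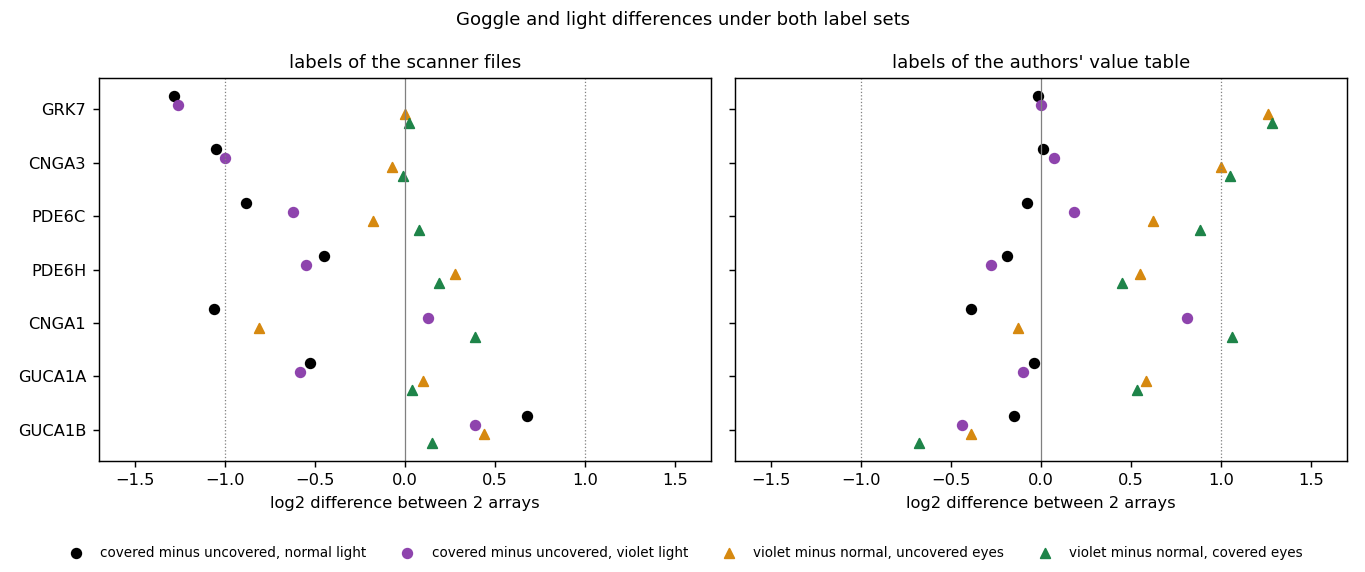
Log2 differences of the 7 genes (brighter probe where a gene has 2) for the goggle contrast in each light (circles) and the light contrast in each eye (triangles), left with the scanner files' labels and right with the value table's labels; dotted lines mark 2-fold. For GRK7, CNGA3, PDE6C, PDE6H and GUCA1A, the larger differences belong to the goggle in the left panel and to light in the right panel.

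The arrays of uncovered eyes under violet light and covered eyes under normal light carry the same labels in both sources, but they differ in goggle and light at once. Between them GRK7 was lower in the covered normal-light pool by -1.28, CNGA3 by -0.99, PDE6H by -0.73, PDE6C by -0.70, GUCA1A by -0.62 and CNGA1 by -0.26, while GUCA1B was higher by 0.24. This comparison leaves out the array that stood apart. Its values follow from the goggle difference under violet light and the light difference in covered eyes given above, so they are no separate support for either. The members' median was -0.70, against 0.03 over all named genes. GRK7 was the 1 of 7 members at least 2-fold lower, against 0.686% of named genes, and none was at least 2-fold higher, against 2.50%.

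Of 38 other pathway genes listed, 14 were measured. Their median goggle difference was -0.18 under normal and 0.19 under violet light, with 9 and 5 of 14 below 0, as were 2306 and 2000 of all 4807 named genes. In each light 1 of 14 was at least 2-fold higher and none at least 2-fold lower, the 1 being OPN1LW, the red cone pigment. Of all named genes 4.70% and 0.395% were at least 2-fold higher. OPN1LW stood at 4.27 in uncovered normal light, 4.59 in uncovered violet light, 5.78 in covered normal light and 5.94 in covered violet light. Its covered arrays were the higher pair, with goggle differences of 1.51 and 1.36, against the direction of the kinase GRK7. With the value table's labels, its goggle differences were -0.16 and -0.32.

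Split by cell class from textbook knowledge, after the values had been seen, 6 of the 14 were cone genes. Besides the pigment they included the cone transducin subunit GNAT2 (0.22 under normal and 0.19 under violet light), the cone arrestin ARR3 (-0.13 and -0.46) and the cone sodium-calcium exchanger SLC24A2 (-0.40 and -0.47). The green pigment OPN1MSW differed by 0.34 and 0.54 and OPN2SW, a short-wavelength cone pigment, by 0.31 and 0.33. With the scanner labels, the measured pigments and transducin of cones thus read higher in covered eyes in both lights, and the exchanger read lower. GNAT2 read higher under violet light by as much, 0.22 in uncovered and 0.19 in covered eyes. Its level was 7.3 in both the uncovered violet-light and the covered normal-light array, so its arrays did not separate by goggle. Arrestin read lower under violet light, while under normal light its 3 probes lay between -0.13 and 0.00. No test of a split among these 6 genes was made. The median of these 6 was 0.27 and 0.26. With the value table's labels, GNAT2 differed by -0.19 and -0.22 with the goggle, OPN2SW by -0.09 and -0.08 and OPN1MSW by -0.16 and 0.05. ARR3 then differed by 0.01 and -0.32 and SLC24A2 by 0.02 and -0.05.

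The 4 measured genes of the list that are counted here with rods, each at its brightest probe, all read lower in covered eyes under normal light and higher under violet light. CNGA1 had the same signs, as had 15.8% of all named genes, and the values under normal light include the array that stood apart. PDE6G, the inhibitory subunit of rod phosphodiesterase, stood at 3.99 in uncovered normal light, 3.51 in uncovered violet light, 3.34 in covered normal light and 3.80 in covered violet light. It was highest in the uncovered normal-light array, as CNGA1 was, and differed by -0.65 and 0.29 with the goggle. The rod exchanger SLC24A1 differed by -0.54 and 0.30, the transducin subunit GNB1 by -0.29 and 0.06 and the rod transducin subunit GNAT1 by -0.22 and 0.20. All 4 of these read lower under violet light in uncovered eyes, between -0.48 and -0.17, and higher in covered eyes, between 0.15 and 0.46. Unlike CNGA1, GNAT1 was dim and highest in covered violet light, at -4.04 against -4.06 in uncovered normal light. The violet-light value of GNB1 lies within the spot error of 0.068, and its 5 probes did not share 1 direction under normal light, running from -0.29 to 0.32. Whether the GNB1 RNA came from rods was not tested. RGS9BP, which anchors RGS9 to the membrane, differed by -0.65 and -0.53 on its brightest probe. GRK4, a kinase not specific to photoreceptors, differed by 0.18 and 0.22.

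Markers of the cell types that a button can hold moved with some of these comparisons. Of 9 listed cone markers 8 were measured, with median goggle differences of 0.27 and 0.22, and their summed level was 296 in uncovered normal light, 347 in uncovered violet light, 351 in covered normal light and 383 in covered violet light, in units of the array's 75th percentile. Their sum was thus not lower in covered eyes, unlike that of the 4 cone members (25.1, 26, 14.9 and 16.2). OPN1LW, OPN1MSW, OPN2SW, GNAT2 and ARR3 are in this marker list and also among the 6 cone genes above, so the medians are not separate. The other measured cone markers differed in direction, with RXRG at 0.78 and 0.25, THRB at 0.22 and -0.15 and CALB1 at -0.69 and -0.30. Of 11 general photoreceptor markers 6 were measured, with medians of -0.15 and 0.07. Of 6 rod markers 3 were measured, namely GNAT1, the nuclear receptor NR2E3 and the rod transcription factor MAFA, and their summed level was 2.14, 1.79, 0.957 and 1.23 in the same order of arrays. Their medians were -1.18 under normal and -0.09 under violet light, so that under normal light the rod markers were lower beside CNGA1. The rod marker sum was lower in both covered arrays than in both uncovered arrays, the same split and direction as the cone members. MAFA differed by -1.27 and -0.09, close to CNGA1, NR2E3 by -1.18 and -0.65, and the dim GNAT1 by -0.22 and 0.20. NR2E3 read 0.78, 0.63, -0.41 and -0.02 in the same order of arrays, so its covered arrays were the lower pair. The part of rod or cone RNA content in the members' values was not tested.

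Markers of some tissues around the retina and of some other retinal cells differed between the arrays too. Striated muscle markers (4 of 6 measured) summed to 0.298, 0.228, 15.5 and 1.07, and lens markers (5 of 5) to 0.535, 10.1, 2.97 and 1.52, in the same order. Choroid vessel markers (6 of 10) summed to 7.19, 4.94, 7.55 and 5.31, split by light under the scanner labels. KDR, the brightest of them, differed with light by only -0.11 in uncovered and -0.14 in covered eyes. The median light differences of the 6 were larger, at -1.26 and -1.14, with 4 of 6 at least 2-fold lower in each. Of all named genes 1.69% and 2.27% were. Pigment epithelium and melanocyte markers (7 of 9) summed to 30.1, 28.6, 37.3 and 28.5. Bipolar cell markers (3 of 6) summed to 44.1, 46.6, 55 and 63.4, and Mueller glia markers (4 of 5) to 256, 338, 385 and 376. Ganglion cell markers (3 of 7) differed less, at 60.2, 57.2, 58.5 and 58.4. So did amacrine and horizontal cell markers (6 of 8), at 75.6, 82.9, 82.8 and 81.8. The striated muscle, bipolar and Mueller glia sums were higher in both covered than in both uncovered arrays, the same split as the cone members in the opposite direction. Among the striated muscle markers the median goggle difference was 5.47 under normal and 1.96 under violet light. The part of these cells and tissues in the members' values was not tested.

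For the members whose level spanned at least 1 over the arrays, the named genes with the most similar profile were sought by the root mean square difference between profiles centred on their mean over the 4 arrays. Nearest to GRK7 were the clock gene PER3 (0.088), CNGA3 (0.124) and the immediate-early transcription factor EGR1 (0.141). PDE6C ranked 20 among 4806 genes for GRK7 and 9 for CNGA3. Nearest to CNGA3 were ASMT, the last enzyme of melatonin synthesis (0.073), NIM1K (0.089) and EAF2 (0.098). Nearest to CNGA1 were the nuclear receptor gene NR1I3 (0.028), CD40LG (0.063) and AOX2 (0.066), and GRK7 ranked 3486 for it. The distance between GRK7 and CNGA1 is the same from either side, at 0.508, and only its rank differs, since CNGA1 ranked 590 for GRK7. CNGA1 ranked 772 for CNGA3, at a distance of 0.407. With 4 arrays many genes share any simple pattern, so these distances are a description.

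Over 8 alternatives that keep the scanner labels, the goggle difference of GRK7 lay between -1.60 and -1.22 under normal light and between -1.36 and -1.20 under violet light. For CNGA3 the ranges were -1.38 to -0.92 and -1.1 to -0.92, and for PDE6C -1.20 to -0.85 and -0.72 to -0.62. The lowest of these under normal light came from median scaling, where all named genes together had a median of -0.30. Since this scaling shifts every gene of an array alike, GRK7 relative to that median is -1.30 with or without it. For PDE6H under normal light, median scaling gave -0.78 and the value table's labels gave -0.19. Relative to the median of all named genes, PDE6H was at -0.48 with or without median scaling and at -0.16 with the value table's labels. CNGA1 ranged from -1.39 to -0.85 under normal and from 0.03 to 0.15 under violet light. After normexp background correction, CNGA3 and CNGA1 fell short of 2-fold under normal light, at -0.97 and -0.85.

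**Figure D4:**
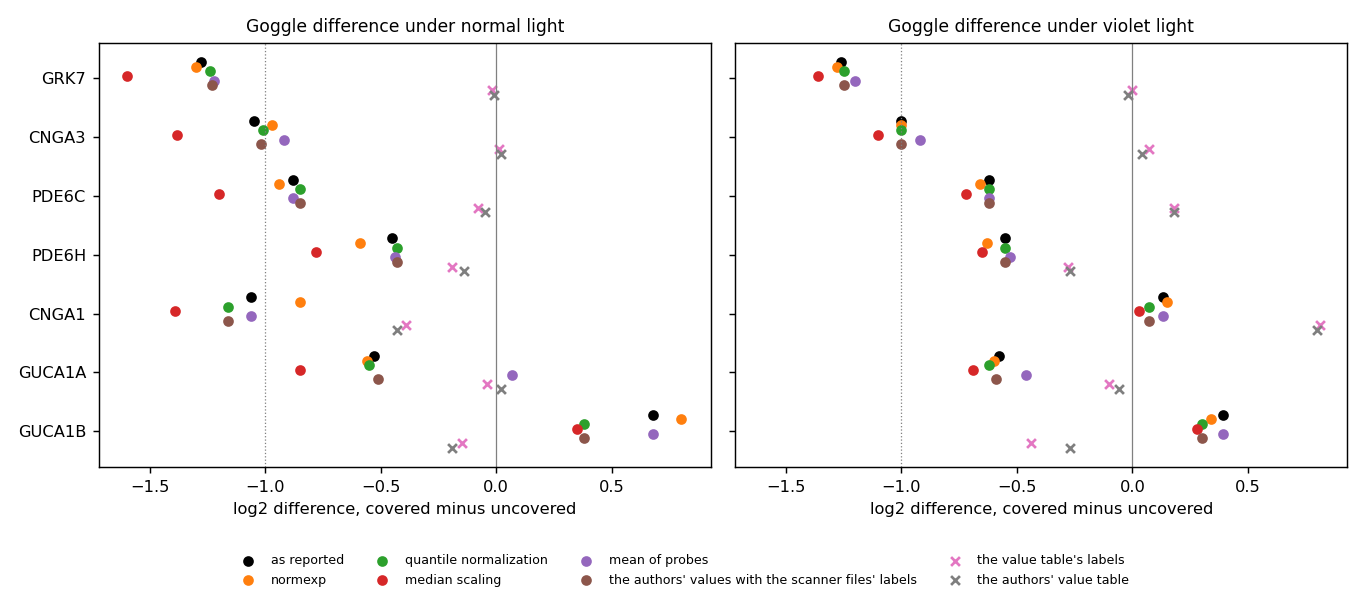
Goggle difference (log2, covered minus uncovered) of the 7 genes under normal light (left) and violet light (right), as reported (black) and under other settings, with circles for the scanner labels and crosses for the value table's labels; the dotted line marks 2-fold lower. The circles of GRK7 lie between -1.60 and -1.22 under normal light, those of GUCA1B spread from 0.35 to 0.80 there, and the crosses lie near 0 for GRK7 and CNGA3.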

How the data were processed

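RNA of 4 eyes per group was labelled with Cy3 from 100 ng and hybridised to 1-colour chicken arrays, per the labels' protocols. Feature Extraction 11.5.1.1 from Agilent quantified the spots, per the file headers. Each deposited scanner file holds the processed intensity of every spot, after background subtraction and before any scaling between arrays. It also marks by 0 or 1 whether a spot was saturated, an outlier or well above background. In the authors' table the values are intensity on a linear scale, every column with a median of 218.15, and no source used here states how they were normalized.

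Processing used R 4.3.3, limma 3.58.1, Python 3.11.15 and pandas 2.3.3. Spots (43803) were averaged to 43603 probes, 26 with an outlier mark were left out, and none was saturated. Levels are log2 signal minus the array's 75th percentile over spots. Probes were named by unversioned RefSeq accession through RefSeq's GRCg7b table: 11711 had 1 symbol, none had several and 31892 stay unnamed here. The headers give an older chicken build, so no coordinates are printed. No sequence of a probe, promoter or protein was used here. A probe passed when well above background on all 4 arrays. With 1 array per group, differences have no p-value and were counted at 2-fold. The number of arrays limits the precision. The limma fit (lmFit, eBayes, Benjamini-Hochberg, 0.05) used all passing probes, and its code was tested on simulated data. Alternatives were the other label set, normexp (offset 50, on the spot and local background medians, since the files hold no spot mean), quantile normalization, median scaling, the authors' table, the mean of probes, and other filters. Named were all members with every probe, other pathway genes except those not reported here, and the 3 most similar genes for members spanning at least 1 log2. Members and lists were chosen with earlier results of these data known.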

Additional observations from a re-analysis of the deposited data

Results flagged for a closer look

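CNGA1 differed in opposite directions with the goggle in the 2 lights (-1.06 under normal and 0.13 under violet light) and with light in the 2 eyes (-0.81 in uncovered and 0.39 in covered eyes). PDE6C differed in opposite directions with light, by -0.18 in uncovered and 0.08 in covered eyes, both small beside its goggle differences. Each of these values compares 1 array with 1 array, so the difference between the lights or eyes was not tested. The first value of each pair includes the uncovered normal-light array.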

How the results depend on the processing

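With the value table's labels, the members' median goggle difference became -0.08 under normal and 0.00 under violet light, the median light difference 0.58 in uncovered and 0.88 in covered eyes, and the cone median minus CNGA1 (goggle difference averaged over both lights, -0.42 as reported) became -0.19. The authors' table under its own labels gave -0.05, -0.02, 0.59, 0.85 and -0.18 for the same quantities, and under the scanner labels, an alternative chosen after seeing the data, the last was -0.33. Median scaling gave -1.20 under normal light, -0.69 under violet light, -0.18 for light in uncovered eyes, 0.24 for the difference between the lights and -0.85 for covered normal against uncovered violet light. The medians of all named genes moved with it, to -0.30, -0.06, -0.18, 0.23 and -0.12 in the same order. Relative to those medians, the members' goggle and light differences were the same with or without median scaling. The cone median minus CNGA1 was -0.55 after normexp correction and -0.32 after quantile normalization. In the brighter probes alone, where GUCA1B drops out, the median under normal light was -0.97. The limma count of probes, 0 as reported, was 2324 with median scaling, 16 in the authors' table, 32 in the brighter probes alone and 2687 with a variance trend. Replacing the GUCA1A probe by its dimmer one, also chosen after seeing the data, left the median goggle differences at -0.88 and -0.55. Of 414 single-gene values under alternatives, 284 stayed within the spot error or on their side of 2-fold, 118 moved by more than the spot error and 12 fell below 2-fold. Many of the 284 could not have moved, so their number does not measure robustness. The filters on dim probes and the change of GUCA1A probe leave the probes of most members as they are. The mean of probes leaves a gene with 1 probe unchanged. The label swap leaves the difference between the lights and that of covered normal minus uncovered violet light unchanged. No paired analysis was possible because each group has 1 array, apart from the fit with light as the pair. For the same reason no replicate could be left out, and all 4 arrays share a slide, so slide was no block. Signal over background limited no member.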

Other observations

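The 3 probes of RGS9BP disagreed under normal light, at -1.37, -0.65 and 0.52, and were closer under violet light, at -0.93, -0.53 and -0.25. The second OPN1MSW probe gave goggle differences of 1.43 and 1.08, against 0.34 and 0.54 on the brighter one.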
